A study of Rattus norvegicus with 6 samples.

Results

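The proteins of the mitochondrial ribosome were followed in rat β-cells depleted of COUP-TFII, as every probe set whose single platform symbol is Mrpl or Mrps followed by a digit. The rule found 97 probe sets for 73 genes, among 31042 probe sets that are not controls and 14217 genes that a probe set names by a single symbol. Of the members, 58 probe sets measure 46 genes of the large subunit (Mrpl) and 39 measure 27 genes of the small subunit (Mrps). RefSeq lists 78 protein-coding genes of these names in the rat, and 5 of them (Mrpl41l1, Mrpl42l1, Mrps10, Mrps21l and Mrps36l1) have no probe set here. The comparison outside the mitochondrion is with 57 probe sets for 50 cytosolic ribosomal protein genes, named Rpl or Rps. Of these, 9 probe sets carry the symbol of a pseudogene, a like gene or the paralog Rps4y2, and since cytosolic ribosomal protein genes have many near copies, some of their probes may read several.

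The cells were the rat insulinoma line 832/13 INS-1, a single clone that secretes insulin, used at passages 7 to 25 and grown in medium with 11 mM glucose. They were electroporated with an siRNA against COUP-TFII (3 arrays) or with a scrambled siRNA as control (3 arrays), and RNA was taken after 48 h. RNA levels were read on Affymetrix rat arrays as 1 signal, a MAS5 intensity, for each probe set. The labels number the biological replicates 1 to 3 in each group, and arrays of the same number deviated from their group means together, so both an unpaired fit and one that blocks on the replicate number are given. The question is whether the loss of this nuclear receptor is accompanied by changes in the genes of the organelle's own translation apparatus.

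The mitochondrial ribosome translates the few messages of mitochondrial DNA, all of them for subunits of the respiratory chain and the ATP synthase. Its RNAs are made in the organelle, while its proteins are encoded in the nucleus, made on cytosolic ribosomes and imported. Part of these proteins have bacterial counterparts and part exist only in mitochondria. β-cells couple glucose to insulin secretion through mitochondrial ATP. COUP-TFII, encoded by Nr2f2, is a nuclear receptor that binds pairs of a short DNA motif.

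Nr2f2 itself checks the labels. Its brightest probe set read 47.0, 27.7 and 23.8 after COUP-TFII siRNA and 182, 235 and 179 after scrambled siRNA, and a second one read 19.7, 22.2 and 21.3 against 79.8, 65.7 and 61.8. The groups do not overlap in either, at log2 fold changes of -2.65 (SE 0.30) and -1.71 (SE 0.32). After Benjamini-Hochberg adjustment over all probe sets neither passed in the unpaired limma fit (adjusted p = 0.404 and 1), and the first fell with the replicate block (adjusted p = 0.0185). A further Nr2f2 probe set was dim in both groups, that is, its means lay at or below 20.7, the highest signal of the control probe sets for Bacillus transcripts.

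The insulin genes Ins1 and Ins2 and the islet amyloid gene Iapp were bright on every array, Ins1 from 9490.4 to 15843, and all 11 measured β-cell markers were above the dim level. Of these markers 8 had a log2 fold change above 0 and 3 below. Among the latter were Nkx6-1 at -0.45 (SE 0.28) and Pdx1 at -0.16 (SE 0.14). Their limma p with the replicate block was 0.0331 (adjusted p = 0.797) and 0.145, and in both the groups overlap. Of the 11 exocrine and the 11 fibroblast, endothelial and immune markers, 2 each were above it, the exocrine ones being the keratin gene Krt7 and the chymotrypsinogen gene Ctrb1. The glucagon gene Gcg, a marker of α-cells, read 8056, 4789 and 817 after COUP-TFII siRNA and 6313, 3397 and 394 after scrambled siRNA. It therefore differed more between replicate numbers than between treatments. The summed signal of the β-cell markers was lowest on the second scrambled array, at 43651, and lay between 55406 and 58991 on the other 5. This sum is carried by the brightest probe sets and depends on how the arrays are scaled. The median log2 fold change of the 11 markers was 0.11 as deposited and -0.0066 after quantile normalization. As these are bulk arrays, fewer cells making an RNA and less RNA per cell cannot be told apart.

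Promoter sequences of the members are shown first, searched for motifs of factors known for nuclear genes of mitochondria and of the depleted receptor. RefSeq windows of GRCr8, from 250 bases before to 50 bases after the gene's start, were matched for 59 of the 73 genes, and the other 14, Mrpl43 among them, have no window here. Of these 59 genes, 20 (33.9%) hold CCGGAAG, the core bound by ETS factors such as GABP, against 9.63% of 27457 rat genes with a window. The letters AAGATGG, as in sites of YY1, were found in 15 (25.4%) against 7.77%, and GCGCANGCG, part of the site of nuclear respiratory factor NRF-1, in 11 (18.6%) against 6.46%. AGGTCA, the motif that COUP-TF and many other nuclear receptors bind in pairs, was found in 11 (18.6%), beside 16.9% of all genes. Both strands were searched, and none of these motifs contains another, though the ETS and the YY1 letters can overlap in AAG. The members' windows had a median GC content of 56.0% against 51.7% over all windows, and the part of composition in these shares was not tested. Cytosolic ribosomal protein genes held the ETS letters in 10 of 41 windows (24.4%), the YY1 letters in 8 (19.5%), the NRF-1 letters in 4 (9.76%) and AGGTCA in 7 (17.1%).

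The 250 bases before the start are given for 4 members whose signal was higher after COUP-TFII siRNA with an unadjusted p up to 0.05 once blocked on replicate number, with motif matches in capitals. Mrpl17 was chosen for a palindromic NRF-1 match (bases 55 to 46 before the start) and a further one (bases 17 to 9), Mrpl53 for ETS matches on both strands (it also holds AGGTCA at bases 247 to 242), Mrpl47 for AGGTCA on the other strand at bases 16 to 11, and Mrps33 as a promoter without any of the 4 motifs in this stretch.
Mrpl17, chr1:169575700-169575949, minus strand: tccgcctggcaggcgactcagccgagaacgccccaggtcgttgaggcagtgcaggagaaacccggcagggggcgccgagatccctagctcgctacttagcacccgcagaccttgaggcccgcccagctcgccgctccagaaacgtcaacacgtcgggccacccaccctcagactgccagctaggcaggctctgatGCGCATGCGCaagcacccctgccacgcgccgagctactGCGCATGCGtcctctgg
Mrpl53, chr4:117172793-117173042, plus strand: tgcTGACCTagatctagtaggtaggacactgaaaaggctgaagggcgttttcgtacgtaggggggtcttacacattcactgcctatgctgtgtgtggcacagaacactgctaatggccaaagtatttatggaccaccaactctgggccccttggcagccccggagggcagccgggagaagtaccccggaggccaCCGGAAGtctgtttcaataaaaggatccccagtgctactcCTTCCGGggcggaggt
Mrpl47, chr2:117447362-117447611, minus strand: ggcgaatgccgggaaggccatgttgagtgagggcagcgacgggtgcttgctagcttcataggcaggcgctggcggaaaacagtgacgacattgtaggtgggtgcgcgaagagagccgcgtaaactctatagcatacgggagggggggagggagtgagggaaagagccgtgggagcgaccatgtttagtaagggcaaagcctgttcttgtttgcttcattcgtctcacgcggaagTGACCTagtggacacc
Mrps33, chr4:69566939-69567188, minus strand: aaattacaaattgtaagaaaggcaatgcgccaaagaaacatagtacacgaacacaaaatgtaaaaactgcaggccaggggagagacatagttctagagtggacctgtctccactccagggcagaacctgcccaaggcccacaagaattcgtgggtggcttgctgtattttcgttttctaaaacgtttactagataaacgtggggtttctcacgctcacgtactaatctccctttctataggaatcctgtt
A match of letters is a description and not a site at which binding was measured. With 1 probe set per gene, the median log2 fold change was 0.10 for the 20 genes with the ETS letters and 0.11 for the 39 without them. For AGGTCA the medians were 0.072 (11 genes) and 0.11 (48 genes).

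No mitochondrial ribosomal protein gene passed the test after adjustment. At an adjusted p under 0.05 the unpaired limma fit called 0 of 97 members and 0% of all probe sets, and the fit with the replicate block called 0 members beside 0.0161% of all probe sets, which is 5. The changes measured were small, as 88 of the 97 log2 fold changes lay within 0.25 of 0 and the median standard error was 0.18. For 90 members the 95% interval of the log2 fold change lay within 1 of 0. Of the other 7, 4 are the dim ones.

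The members were nevertheless mostly on the same side. Their log2 fold changes, those of depleted against control cells, had a median of 0.089 and were above 0 in 73 and below 0 in 24, while over all probe sets the median was -0.0031 and 49.6% were above 0. The median was 0.092 for the large subunit (42 above 0, 16 below) and 0.085 for the small one (31 above 0, 8 below), and a difference between them was not tested. Quantile normalization left the median at 0.086, with 70 above 0. With 1 array left out the median was -0.0079 without the second COUP-TFII siRNA array and ran from 0.040 to 0.17 over the other 5. Without both arrays of replicate 2 it was 0.074. Members vary together from array to array, so no p is given for their median.

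**Figure D1:**
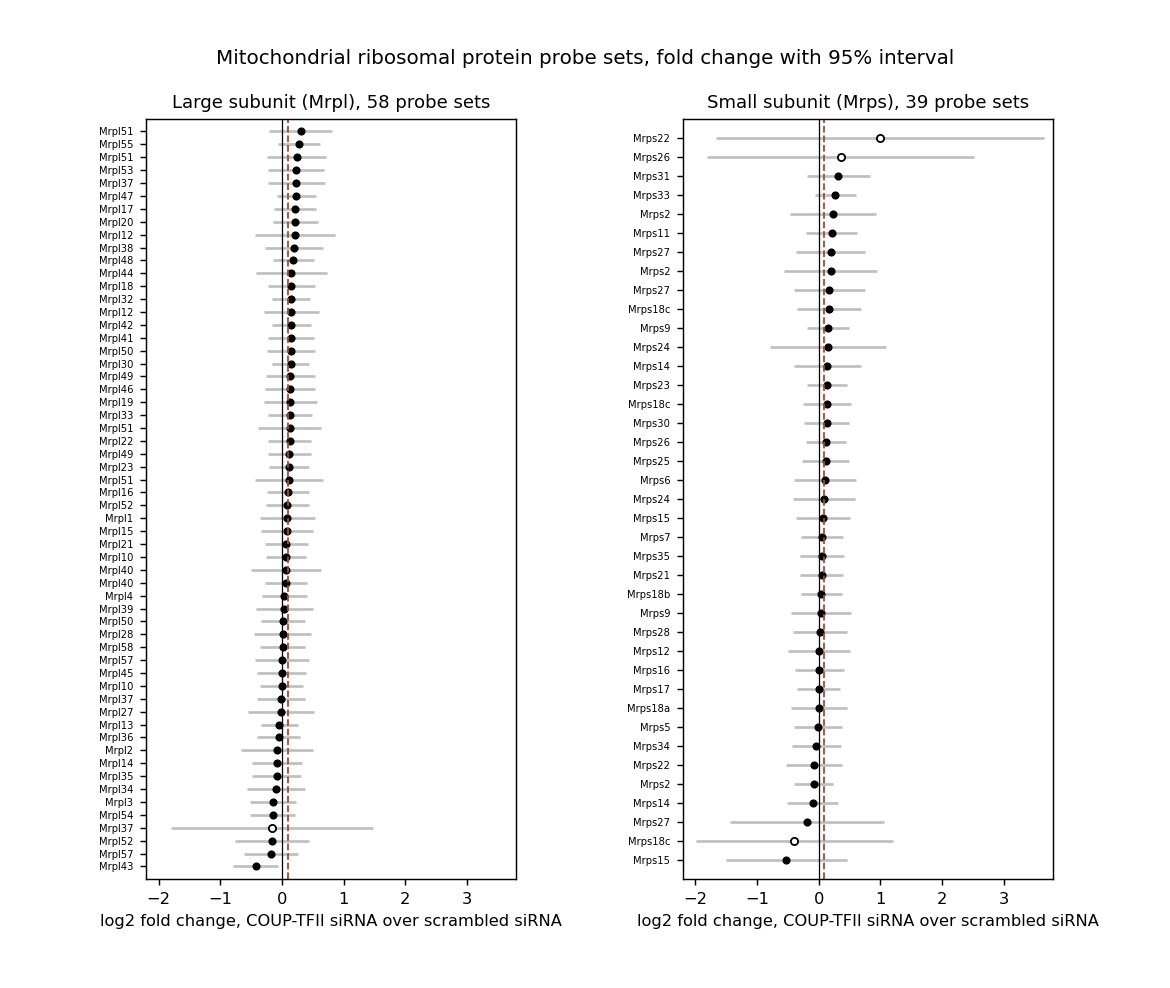
Log2 fold change of each of the 97 probe sets between depleted and control cells (3 arrays each) with its unadjusted 95% interval from limma, by subunit; open circles are dim in both groups and the dashed line is the median of the panel. The medians are 0.092 and 0.085, all intervals but that of Mrpl43 include 0, and Mrpl43 at -0.42 lies lowest in the left panel.

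At an unadjusted p up to 0.05 in the unpaired limma fit, 0 of 97 members were higher beside 0.973% of all probe sets, and 1 was lower beside 1.34%. With the replicate block 7 members (7.22%) were higher beside 2.72% of all probe sets, and 1 (1.03%) was lower beside 3.51%. The 7 are Mrps33, Mrpl55, Mrpl47, Mrpl17, Mrps31, Mrpl53 and 1 of the 4 probe sets of Mrpl51, and the lower one in both fits is Mrpl43. Signals of the groups did not overlap for 3 higher members (3.09%), where 3.24% of all probe sets did so, and for 2 lower members (2.06%), beside 3.45%. Neither share stands above the background.

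Mrpl43, a protein of the large subunit, read 724, 852 and 728 after COUP-TFII siRNA and 948, 1245 and 915 after scrambled siRNA. Every COUP-TFII siRNA array lay below every scrambled array, and the second replicate was the brightest in both groups. The log2 fold change was -0.42 (SE 0.16, 95% interval -0.79 to -0.06), and within the pairs it was -0.39, -0.55 and -0.33. The limma p was 0.0273 unpaired (adjusted p = 1) and 0.000747 with the replicate block (adjusted p = 0.465). Without the second scrambled array the log2 fold change was -0.28, and over the leave-outs of 1 array the unadjusted p ran from 0.0236 to 0.0911. An exact permutation test over 3 against 3 arrays cannot give a two-sided p under 0.1. In the rat assembly Mrpl43 lies next to Twnk, the helicase of mitochondrial DNA, whose brightest probe set was at a log2 fold change of 0.17 (SE 0.21), and on the other side next to Sema4g, at 0.18 (SE 0.50).

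Among the members at higher signal, Mrps33, a small-subunit protein, read 1643, 1861 and 1741 after COUP-TFII siRNA and 1238, 1590.4 and 1539.9 after scrambled siRNA. The groups do not overlap, at a log2 fold change of 0.27 (SE 0.15), with an unadjusted limma p of 0.0988 unpaired and 0.0138 with the block (adjusted p = 0.777). Without the first scrambled array it was 0.16. Mrpl47, a large-subunit protein with a bacterial counterpart, read 424, 519.5 and 438 against 391, 379 and 404, and Mrpl17, likewise conserved from bacteria, read 2514, 2906 and 2391 against 2362, 2369.7 and 1996. In both the lowest COUP-TFII siRNA array lay just above the highest scrambled array. Their log2 fold changes were 0.23 (SE 0.14) and 0.21 (SE 0.15), with a p with the block of 0.0445 and 0.0460. Leaving out 1 array brought Mrpl47 to 0.14 (without the second COUP-TFII siRNA array) and Mrpl17 to 0.13 (without the last scrambled array).

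Mrps31, once described as an islet autoantigen in type I diabetes, read 286, 447 and 281 after COUP-TFII siRNA and 265, 321 and 219.7 after scrambled siRNA. Its groups overlap, but each COUP-TFII siRNA array lay above the scrambled array of the same number, by 0.11, 0.48 and 0.36 on the log2 scale. The log2 fold change was 0.32 (SE 0.22), with a limma p of 0.195 unpaired and 0.0136 with the block. It ran from 0.096 without the second COUP-TFII siRNA array to 0.45 without the second scrambled array. Mrpl55, a large-subunit protein, read 1340.1, 1412 and 1129 against 943, 1189.7 and 1078 (log2 fold change 0.27, SE 0.15), and Mrpl53 read 1751, 2172 and 1552 against 1599, 1877 and 1205 (0.24, SE 0.20). Both overlap between groups and were higher in every pair, and Mrpl53 ran from 0.061 without the last scrambled array to 0.38 without the second one. Mrpl51 has 4 probe sets, with log2 fold changes from 0.12 to 0.30, and for 1 of them, at 0.24 (SE 0.21), the block p was 0.0446. With 1 array left out this probe set ran from 0.063 (without the second COUP-TFII siRNA array) to 0.41 (without the first).

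**Figure D2:**
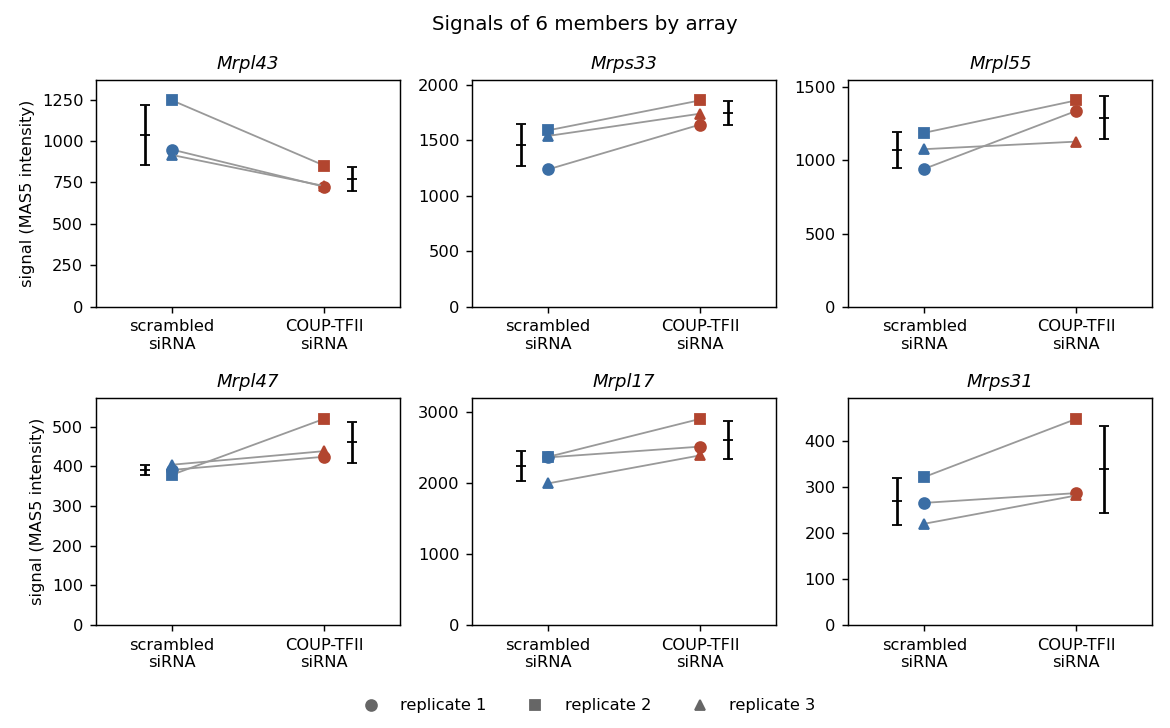
Signals (MAS5 intensity, from 0) of 6 members on each of the 6 arrays, with lines joining arrays of the same replicate number and bars for mean ± SD of 3 arrays. Mrpl43 is lower after COUP-TFII siRNA in each pair and the other 5 are higher in each pair, while replicate 2 (squares) is the brightest of its group for most.

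Of the 8 bright members with the lowest p at a value below 0, Mrpl43 comes first, and the others were Mrpl54 (log2 fold change -0.15, SE 0.16), Mrpl57 (-0.18, SE 0.19), Mrpl3 (-0.15, SE 0.17), and Mrpl52, Mrps2, Mrps14 and Mrpl35, between -0.16 and -0.079. None of these 7 had an unadjusted p up to 0.05 in either fit, and for 5 of them (Mrpl3, Mrpl52, Mrps2, Mrps14 and Mrpl35) leaving out 1 array turned the sign. Brighter probe sets put Mrpl52 at 0.089 and Mrps14 at 0.14, above 0. Dimmer ones put Mrps2 at 0.23 and 0.20 and Mrpl57 at 0.0018. On the other side Mrpl20 (0.21, SE 0.16) and Mrpl48 (0.18, SE 0.15) are among the 8 with the lowest p above 0. The rest are Mrps33, Mrpl55, Mrpl47, Mrpl17, Mrps31 and a probe set of Mrpl51 other than that at 0.24. This Mrpl51 probe set was at 0.30 (SE 0.22), with a limma p with the block of 0.0861. It was at -0.092 in the first pair and at 0.13 without the second COUP-TFII siRNA array. Mrpl53 is not among the 8. Leaving out 1 array brought Mrpl20 to 0.13 (without the first scrambled array) or 0.35 (without the second), and Mrpl48 to 0.059 (without the second COUP-TFII siRNA array). On the lower side it brought Mrpl54 to -0.035 (without the last COUP-TFII siRNA array) and Mrpl57 to -0.061 (without the second scrambled array). Mrpl12, a large-subunit protein that also binds the mitochondrial RNA polymerase, was at 0.15 (SE 0.20) and 0.21 (SE 0.28) by its probe sets. Mrpl58, the release factor built into the ribosome, was at 0.0097 (SE 0.16).

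Probe sets of the same gene did not always give the same value. Of 18 genes with several probe sets, 8 had all of them on 1 side of 0 and 10 on both, and in 3 genes they differed by more than 0.5. Mrps15 had one probe set at 0.072 (SE 0.19), with signals from 1113 to 1699, and another at -0.52 (SE 0.43) that read 17.4, 17.6 and 19.9 after COUP-TFII siRNA and 23.8, 23.1 and 32.7 after scrambled siRNA. This second one is the other lower member without overlap, and its signals lie near the dim level. For Mrps22 and Mrps18c the deviating probe set (0.99, SE 1.17, and -0.39, SE 0.70) was dim in both groups. In all, 93 members were above the dim level, each gene having at least 1 such probe set, and 91 reached the median signal of all probe sets.

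Within the same-numbered pairs the medians of the members were 0.084, 0.11 and 0.025, with 68, 70 and 60 of 97 above 0. Of the members, 37 (38.1%) were higher after COUP-TFII siRNA in all 3 pairs, beside 13.4% of all probe sets, and 6 (6.19%) were lower in all 3, beside 14%. The 6 are Mrpl43, Mrpl54, Mrpl35, Mrpl2 and 1 probe set each of Mrps2 and Mrps15. Among the brighter probe sets, those whose mean log2 signal reached the median of 5.07, the share higher in all pairs was 40.7% for members and 15.1% for all. After quantile normalization 38 members were higher in all pairs and 5 lower.

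The cytosolic ribosomal proteins had a share of 42.1% (24 of 57) higher in all 3 pairs and 3.51% (2) lower, so as deposited this count does not set the mitochondrial ones apart from them. It was not repeated for the cytosolic ones after quantile normalization. There 30, 25 and 34 of 57 cytosolic probe sets were above 0 in the pairs, and 69, 71 and 59 of 97 members. The median log2 fold change of the cytosolic group was 0.17, with 51 above 0 and 6 below. It came mainly from the second pair, where the median was 0.38, against 0.030 in the first and 0.078 in the third. After quantile normalization it was 0.021 over all arrays and -0.0056 in the second pair. The difference of the medians, mitochondrial minus cytosolic, was thus -0.081 as deposited but 0.065 after quantile normalization. It was 0.10 without the second scrambled array and 0.020 without both arrays of replicate 2, so no order of the groups can be given. Of the cytosolic probe sets 10 (17.5%) were higher without overlap, Rpl11 and Rps9 among them, beside the 3.24% of all. At an unadjusted p up to 0.05 in the unpaired limma fit, 0 were higher, beside 0.973% of all probe sets, and 1 (1.75%) was lower, beside 1.34%. The lower one is Rps4x-ps1, whose signals were below 10 on every array. With the replicate block 1 (1.75%), Rps27l, was higher, beside 2.72% of all, and 1 (1.75%) was lower, beside 3.51%.

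**Figure D3:**
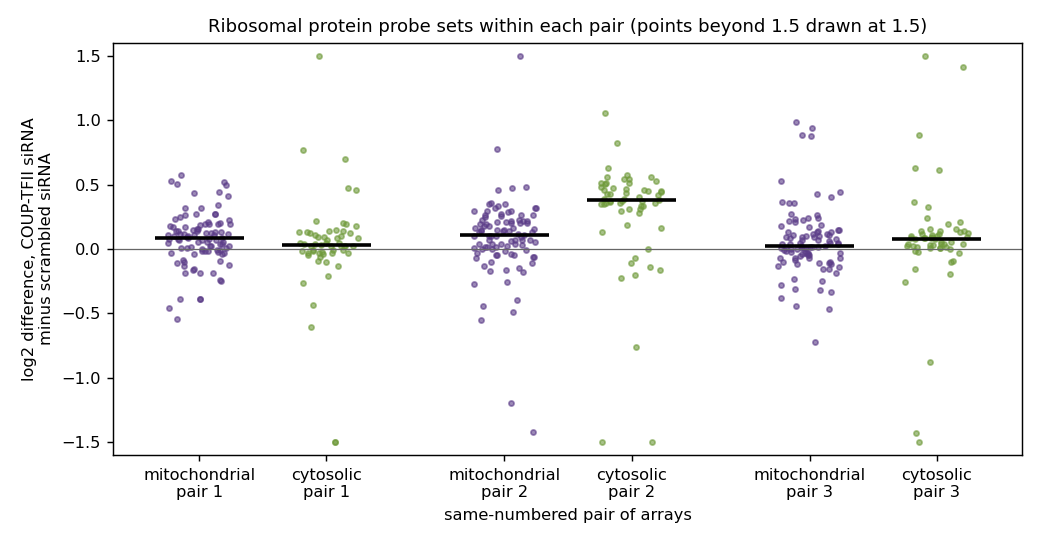
Log2 difference between the COUP-TFII siRNA and the scrambled array of each same-numbered pair, for 97 mitochondrial and 57 cytosolic ribosomal protein probe sets (points, drawn at 1.5 where beyond) with medians as bars. The mitochondrial medians are 0.084, 0.11 and 0.025, and the cytosolic median of pair 2, at 0.38, stands above those of pairs 1 and 3.

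The members differed more between replicate numbers than between treatments. Taken as the deviation from each probe set's mean over the 6 arrays, the median of the members was 0.24 on the second COUP-TFII siRNA array and 0.15 on the second scrambled array, while on replicates 1 and 3 it was -0.048 and -0.055 after COUP-TFII siRNA and -0.16 and -0.077 after scrambled siRNA. Replicate 2 lay above the other replicates, averaged over treatments, in 86 of 97 members, by a median of 0.27 on the log2 scale. This held for 54 of 58 large-subunit and 32 of 39 small-subunit probe sets. In 61 members (62.9%) replicate 2 was the brightest in both groups, where 15.0% of all probe sets and 24.8% of the brighter ones were. Quantile normalization left 90 of 97 members above the other replicates, by a median of 0.24.

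Cytosolic ribosomal proteins did not follow on both arrays of replicate 2, which was at a median of -0.11 relative to the others (14 of 57 above). Their second scrambled array was lowest, at -0.27, but their second COUP-TFII siRNA array was highest, at 0.14. The latter was the brightest of its group in 35 of 57 (61.4%), beside 30.4% of all probe sets. After quantile normalization this was so in 19 (33.3%), beside 38.7% of all, and the median of replicate 2 relative to the others was -0.0075. On both arrays of replicate 2 a larger share of probe sets lay at or below the dim level (42.2% and 43.7%) than on the other 4 (36.2% to 39.1%). The ratio of 3′ to 5′ β-actin signals was highest on the second COUP-TFII siRNA array, at 3.39, and between 2.64 and 3.0 on the others. The part of these differences in the pattern was not tested. The labels do not say what else the arrays of 1 number share.

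**Figure D4:**
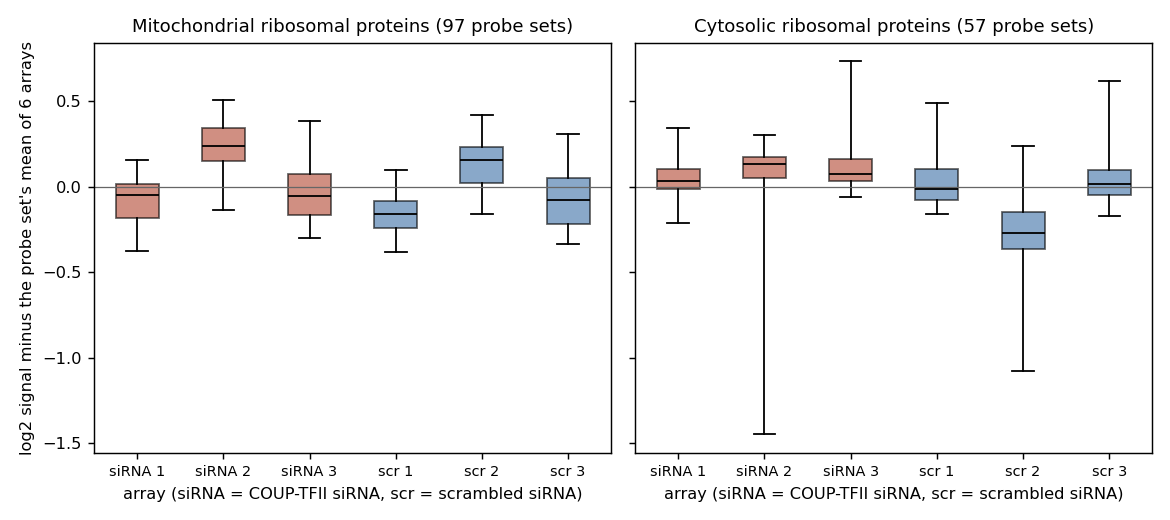
Log2 signal on each array minus the probe set's mean over 6 arrays, for mitochondrial (left) and cytosolic (right) ribosomal proteins; boxes span the quartiles with the median as a line, and whiskers the 5th to 95th percentile. The mitochondrial boxes of both replicate 2 arrays lie highest (medians 0.24 and 0.15), and the cytosolic box of the second scrambled array lies lowest (-0.27).

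None of the other genes of mitochondrial translation and transcription passed after adjustment in either fit, and their log2 fold changes ran from -1.97 (Taco1) to 0.43 (Mrm3). The 7 measured genes listed as mitoribosomal without an Mrp symbol had a median log2 fold change of 0.058 (5 above 0, 2 below). Oxa1l, an insertase of the inner membrane (-0.074), and Kgd4, a subunit of oxoglutarate dehydrogenase (0.058), are among these 7 though not ribosomal proteins. Dap3, a GTP-binding protein of the small subunit, was at 0.087 (SE 0.15). On replicate 2, 6 of these 7 genes were also higher, and the median over the 7 was 0.33. It was 0.23 for assembly and rRNA modification (21 of 27 genes above 0) and 0.20 for mitochondrial DNA transcription and upkeep (10 of 14). For translation factors it was 0.11 (9 of 14), for genes that charge tRNAs 0.062 (9 of 16) and for regulators of nuclear genes for mitochondria -0.017 (5 of 10). The 27 assembly factors and rRNA-modifying enzymes had a median of 0.053 (21 above 0, 6 below), and the methyltransferase gene Mrm3 was at 0.43 (SE 0.27), with an unadjusted limma p of 0.0307 with the block and a value of 0.25 without the second scrambled array. The 16 genes that charge tRNAs, synthetases and the amidotransferase genes Gatb, Gatc and Qrsl1, had a median of 0.065 (10 above 0, 6 below). Wars2, which charges tryptophan tRNA, read 59.5, 56.6 and 68.5 after COUP-TFII siRNA and 97.2, 76.2 and 89.2 after scrambled siRNA (log2 fold change -0.51, SE 0.23). Its groups do not overlap, and its p with the block was 0.0214.

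Of 14 translation factors and activators, 8 were above 0 and 6 below, at a median of 0.054. Slirp, the partner of Lrpprc in keeping mitochondrial messages stable, read 898, 919 and 766 after COUP-TFII siRNA and 721, 743 and 656 after scrambled siRNA. The groups do not overlap, at a log2 fold change of 0.28 (SE 0.13), with a limma p of 0.0665 unpaired and 0.00656 with the block (adjusted p = 0.749). Taco1, an activator of cytochrome oxidase synthesis, was at -1.97 (SE 0.75), with an unpaired limma p of 0.0292 (adjusted p = 1) and signals from 3.46 to 38.5 that lie around the dim level. The 14 genes of mitochondrial DNA transcription and upkeep had a median of 0.090 (10 above 0, 4 below), and Pnpt1 and Ssbp1 were both at 0.23 (SE 0.22 and 0.24), with a p of 0.0280 and 0.0322 with the block. Without the second scrambled array they were at 0.046 and 0.060.

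By the brightest probe set of each gene, all 10 regulators of nuclear genes for mitochondria had values below 0, at a median of -0.11 (-0.081 after quantile normalization), and none of these had an unadjusted p up to 0.05 in either fit. Over all 20 probe sets of these genes 13 were below 0 and 7 above, the latter in 4 genes. Among them 1 of the 4 probe sets of Yy1 read 11.5, 2.78 and 19.6 after COUP-TFII siRNA and 1, 1 and 1.68 after scrambled siRNA, all below the dim level and in part at the floor of 1, with an unpaired limma p of 0.0102 (adjusted p = 1). Gabpb1, the partner of Gabpa in GABP, read 158, 210.3 and 181 against 213, 219.7 and 203 (log2 fold change -0.22, SE 0.17). Esrra, a nuclear receptor of mitochondrial genes, was at -0.26 (SE 0.23) and at -0.075 without the second scrambled array, and Yy1 and Gabpa were at -0.031 (SE 0.15) and -0.00067 (SE 0.26) by their brightest probe sets.

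**Figure D5:**
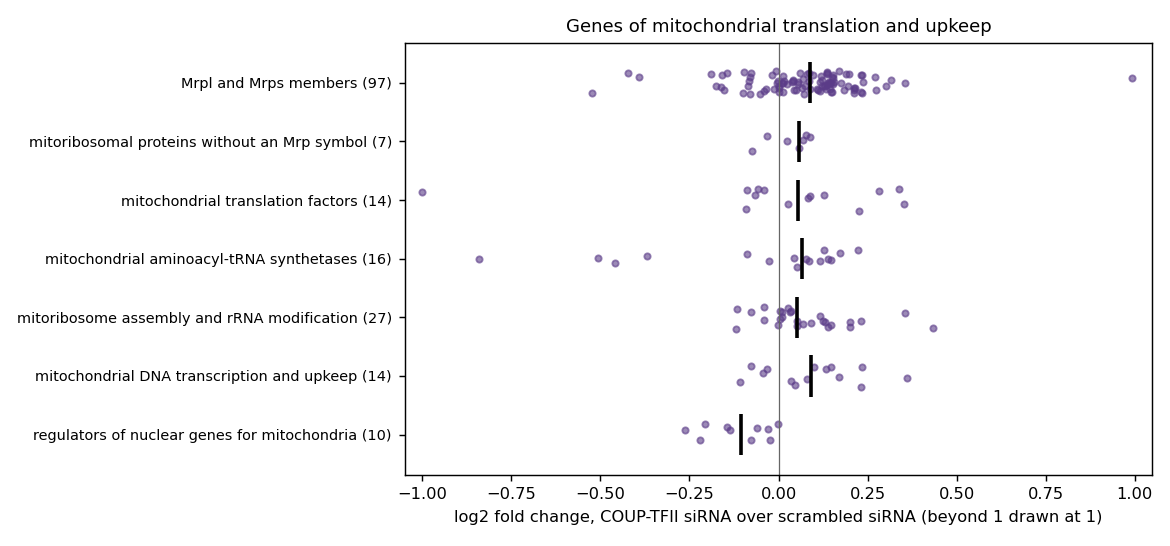
Log2 fold change between depleted and control cells (points beyond 1 drawn at 1) of the 97 member probe sets and of the genes of 6 lists, 1 probe set per gene, with the number in brackets and the median as a bar. The medians of the 5 lists of mitochondrial expression lie between 0.053 and 0.090, and that of the 10 regulators at -0.11. The list without an Mrp symbol includes Oxa1l and Kgd4, and the synthetase list includes Gatb, Gatc and Qrsl1.

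Several members have the start of a neighbouring gene on the other strand close by. Whether such neighbours share a promoter was not tested, and the share of all genes with such a neighbour was not counted. Of the 59 genes with a window, 18 have another start within 1000 bases in the opposite direction, and for 14 the partner was measured. These form 13 distinct pairs, of which both genes were above 0 in 9, both below 0 in 1, and on opposite sides of 0 in 3, namely Mrps7 (0.055) with Gga3 (-0.19), Mrps18b (0.043) with Ppp1r10 (-0.10) and Mrps18c (0.17) with Helq (-0.0042). Mrps11 and Mrpl46, a small- and a large-subunit gene whose starts lie 234 bases apart, are partners of each other. Mrps11 read 433, 558 and 538 after COUP-TFII siRNA and 413, 542 and 373 after scrambled siRNA, and Mrpl46 read 239, 299 and 260.0 against 215, 297 and 220.1. The groups overlap in both, at log2 fold changes of 0.21 (SE 0.18) and 0.14 (SE 0.18), and both were higher in every pair. Mrpl47 has Ndufb5, a subunit of respiratory complex I, 244 bases away, and the values were 0.23 (SE 0.14) and 0.13 (SE 0.15). Mrpl32 and the proteasome gene Psma2, 210 bases apart, were both at 0.15 (SE 0.13 and 0.14).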

How the data were processed

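RNA of 6 arrays was analysed. The authors processed the scans with MAS5 (named in the submitters' processing notes, version not given in the sources used here) and deposited 1 linear intensity per probe set, after subtracting background and normalizing with reference probes. Before log2, signals under 1 were raised to 1, which touched 1.85% to 5.49% of the values of each array. COUP-TFII depleted and control arrays were compared by limma 3.58.1 (R 4.3.3) with lmFit and with eBayes using its trend on signal, without pairing and two-sided. P-values were adjusted by Benjamini-Hochberg over 31042 probe sets. The number of arrays, 3 per group, limits the precision. On data simulated from these arrays, both fits left part of the changed probe sets uncalled, and the block called none of them where arrays were drawn without shifts shared by number.

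The platform annotation gives 1 symbol to 20826 probe sets, several to 436 and none to 9780. Promoters are from RefSeq (GRCr8). The 30 probe sets with several symbols that include Rpl or Rps were left out. Where 1 probe set stands for a gene, it is the one with the highest mean log2 signal. Plots used Python 3.11.15 and matplotlib 3.10.9.

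Deviations from the group means correlated at 0.111, 0.231 and 0.163 between arrays of the same number and at -0.146 to -0.0104 otherwise, so the numbers were taken to pair the arrays. The labels call the replicates biological but do not name separate cultures or days, so the spread between arrays may be partly technical. The members and gene lists were chosen with earlier results of these data known. Named members are the 8 per direction with the lowest unadjusted p at or above the median signal, those at an unadjusted p up to 0.05 and genes whose probe sets differ by over 0.5. Of each list up to 2 genes were to be named by the same p, but not all of them were described above. Those left out are Top1mt (log2 fold change 0.36, SE 0.31), Aars2 (-0.46, SE 0.34), Trub2 (0.20, SE 0.13) and Mtfmt (0.23, SE 0.19). None of these had an unadjusted p up to 0.05 in either limma fit. Other named genes were chosen after their values were seen, among them Mrpl53, Mrpl12, Mrpl58, Mrps11, Mrpl46, Taco1, Ssbp1, Yy1, Gabpa, Rpl11 and Rps9. Alternatives were other normalizations, filters on dim probe sets, log2(signal + 16), limma without the trend, the methods' t-test, the replicate block, arrays left out and 1 probe set per gene. The replicate block with quantile normalization was added after the data were seen.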

Additional observations from a re-analysis of the deposited data

How the results depend on the processing

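No member passed at an adjusted p under 0.05 under any alternative run. With the replicate block (pairing by number) 7 members were above 0 at an unadjusted limma p up to 0.05, beside 2.72% of all probe sets. Below 0 was 1 member, beside 3.51%. Unpaired, the counts were 0 and 1. With the block and quantile normalization together 7 were higher and 2 lower (Mrpl43 and Mrpl54). The share of all probe sets in that fit was not counted, so its counts cannot be set against a background. The count of lower members, 1 as reported, was 0 after median centring and 0 without the intensity trend, where the limma p of Mrpl43 was 0.142 and 0.105, and 0 without both arrays of replicate 1 or of replicate 3. By the methods' t-test at their threshold 0 members were higher, beside 1.52% of all probe sets, and 1 (1.03%) was lower, beside 1.62%. The lower one is Mrps15 (t-test p of 0.0385) and not Mrpl43 (p of 0.0575), and 0 passed after Benjamini-Hochberg adjustment. With 1 array left out, 0 to 1 members were higher and 0 to 1 lower. The members' median log2 fold change ran from -0.0079 (without the second COUP-TFII siRNA array) to 0.17, and the members' median minus the cytosolic median from -0.16 to 0.10 (without the second scrambled array). The latter was 0.065 after quantile normalization, which brought the cytosolic median to 0.021, and 0.020 without both arrays of replicate 2. The cause was not tested. With 1 array left out, log2 fold changes ran from -0.27 to 0.013 for Mrpl3, from -0.35 to 0.068 for Mrpl52, from -0.14 to 0.013 for Mrps2, from -0.19 to 0.079 for Mrps14 and from -0.23 to 0.032 for Mrpl35. Without both arrays of replicate 3 they were 0.016 for Mrpl3 and 0.045 for Mrps14. Signals near the Bacillus controls (4 members dim in both groups) limit what can be said of Mrps22, Mrps18c, Mrps26 and Mrpl37 by these probe sets.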
